A study of Rattus norvegicus with 70 samples.

Results

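Subcutaneous and visceral fat of unexposed male rats were compared gene by gene with RNA sequencing. The libraries were chosen by their labels: sham treatment and odd numbers in the titles, which in this study are all male. They are 6 libraries of subcutaneous adipose tissue (SAT) and 6 of visceral adipose tissue (VAT), from rats 1, 3, 5, 7, 9 and 11, or 12 of the 70 libraries of the series. The rats were Sprague-Dawley males, supplied at 28 days of age and given 8 days to settle. Sham treatment in the nose-only inhalation apparatus began at 39 days of age and lasted 4 h a day for 28 days, and the labels do not state what the sham rats breathed. For comparison, the same depot difference was taken in female sham rats, whose exposure began at 42 days (5 SAT and 6 VAT libraries), and in male rats that inhaled PCB 52, a polychlorinated biphenyl, on the male schedule (6 SAT and 5 VAT libraries). These other rats contribute no library to the male sham comparison. No fat pad is named in the labels, which give the tissue as SAT or VAT.

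Subcutaneous fat lies under the skin and visceral fat surrounds the organs of the body cavity. Adipocytes, the cells that store triglyceride, share both depots with fibroblast-like progenitors, vessels, nerves and immune cells. The depots arise from different regions of the embryo, and their progenitors keep distinct sets of developmental transcription factors into adult life. Visceral fat is covered by mesothelium, a thin epithelial sheet of the body cavity, whereas rodent subcutaneous pads can enclose mammary gland and border on skeletal muscle. In such bulk samples, fewer cells of a type and less RNA per cell cannot be told apart.

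Each library held 6478976 to 8412797 counts over 15319 genes, so that a gene with 3 counts stood at 0.357 to 0.463 CPM (counts scaled to library size). Several libraries stood apart. Milk protein genes took 24.7%, 0.281%, 7.62%, 8.84%, 0.113% and 21.2% of all counts in the SAT libraries of rats 1, 3, 5, 7, 9 and 11, against 0.0863% to 0.15% in VAT. Skeletal muscle genes summed to 2400, 18170, 237, 409, 13540 and 2026 CPM in the same SAT libraries, against 279 to 407 CPM in VAT. VAT 11 held 107 genes at more than 20 times their level in every other VAT library, among them Crisp1 and Adam7 of the male reproductive tract, and SAT 11 held 20 such genes, against 0 to 3 in the other 10 libraries. In VAT 7, ribosomal protein genes took 8.01% of counts, against 2.71% to 3.38% in the other VAT libraries. Adipocyte markers were present in all 12 libraries and summed to 12710 to 56230 CPM in SAT, lowest in SAT 1 and SAT 11, and to 54230 to 87140 CPM in VAT, lowest in VAT 11. For these reasons results are also given without VAT 11, without SAT 1, SAT 11 and VAT 11 together, or with SAT 3 and SAT 9 as the only SAT libraries where these moved them most.

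Over all genes the depots differed in both directions. Of 11318 genes with enough counts to test, 1342 (11.9%) passed an adjusted p of 0.05 in edgeR's quasi-likelihood test, 781 of them higher in SAT (6.9%) and 561 lower (4.96%). At least 2-fold differences with the same p were found for 430 genes higher in SAT (3.8%) and 285 lower (2.52%), and at least 4-fold differences for 233 and 76 genes. All 6 SAT libraries lay above all 6 VAT libraries for 353 of the tested genes (3.12%), and below them for 357 (3.15%). The median difference over all tested genes was -0.01 on the log2 scale, SAT over VAT, as the scaling centres most genes near 0. The shares of 6.9% higher and 4.96% lower are the background for every count of called list members below.

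Without VAT 11, 11405 genes could be tested and 1710 passed (15%), 1088 higher in SAT (9.54%) and 622 lower (5.45%); 655 of the higher genes (5.74%) and 312 of the lower ones (2.74%) differed at least 2-fold. Of the 1342 genes called with all libraries, 1203 were still called, 139 were not called or not tested, 507 further genes were called, and none turned its sign. Leaving out SAT 9 instead raised the count to 1906 genes. Each other single library lowered it when left out, VAT 7 least, to 1335 genes. SAT 1, VAT 3 and VAT 5 lowered it most, to 774, 774 and 738 genes, of which 328, 308 and 284 were lower in SAT. Without SAT 5, 369 genes were lower. Taking the rat as a block left 906 of the 1342 calls, and leaving out SAT 1, SAT 11 and VAT 11 together left 768. Without those 3 libraries 1108 of 11337 genes passed (9.77%), 600 higher in SAT (5.29%) and 508 lower (4.48%). A total of 128 genes higher and 57 lower in SAT were called the same way with all libraries, without VAT 11, with the rat as a block, without those 3 libraries and with SAT 3 and SAT 9, the libraries low in milk genes, as the remaining SAT libraries. Tbx15, Wt1, Tcf21, Irx2, Mmp27 and Cpa3 were among these 185 genes. So were the skeletal muscle genes Myl11, Actn3 and Atp2a1. SAT 3 and SAT 9 held the most muscle gene counts, with sums of 18170 and 13540 CPM. The fits share libraries and are not independent of each other. With SAT 3 and SAT 9 as the only SAT libraries, 401 genes passed, among them 233 of the 1342.

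**Figure D1:**
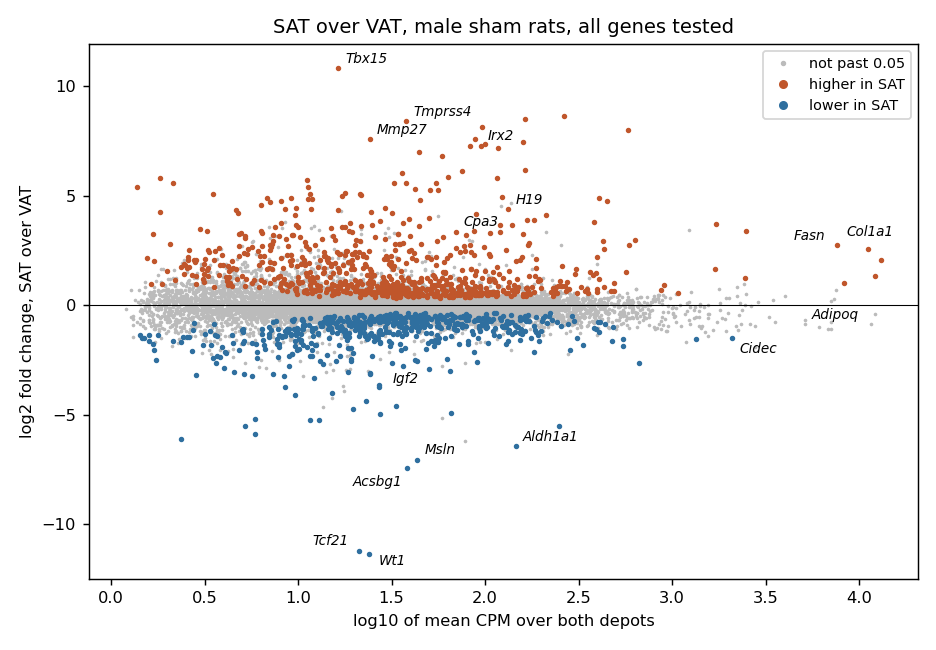
Log2 fold change, SAT over VAT, of each tested gene (y axis) against log10 of its mean CPM over both depots (x axis) in male sham rats. Coloured points are the 781 genes higher and the 561 genes lower in SAT at an adjusted p under 0.05; Tbx15 lies at the top, Wt1 and Tcf21 at the bottom, and named points in grey, such as Adipoq, did not pass.

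A trio of transcription factors separated the depots completely. Tbx15 (gene 295315), a T-box factor of limb, skin and trunk development, measured 18.1 to 51.3 CPM in SAT (median 29.2) and 0 in all 6 VAT libraries. It was at least 474-fold higher in SAT, taking 3 counts over the 6 VAT libraries as the floor (edgeR adjusted p = 0.000106). Wt1 (gene 24883), the Wilms tumour factor of kidney and mesothelium development, showed the reverse, with 0 in all 6 SAT libraries and 32.3 to 70.9 CPM in VAT (median 46.95). Tcf21 (gene 252856), a basic helix-loop-helix factor of mesenchyme around inner organs, likewise had 0 in all 6 SAT libraries and 25.02 to 71.7 CPM in VAT (median 38.1). They were at least 629-fold and 557-fold lower in SAT (adjusted p = 1.14e-05 and 6.27e-05). VAT 11 did not stand apart in any of the 3 genes. All 3 were called without VAT 11, with the rat as a block and without SAT 1, SAT 11 and VAT 11.

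Because no library of one depot overlapped the other in these genes, the 250 bases before their annotated starts are shown, from RefSeq on the GRCr8 assembly, in transcript orientation and with each CG pair in capitals. The windows are at chr2:189265123-189265372, plus strand for Tbx15, chr3:112021759-112022008, plus strand for Wt1 and chr1:24520249-24520498, plus strand for Tcf21.
Tbx15: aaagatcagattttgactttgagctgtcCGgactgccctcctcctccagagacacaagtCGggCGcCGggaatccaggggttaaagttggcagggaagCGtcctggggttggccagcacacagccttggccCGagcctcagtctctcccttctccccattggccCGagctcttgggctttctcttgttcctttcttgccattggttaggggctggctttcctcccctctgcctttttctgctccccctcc
Wt1: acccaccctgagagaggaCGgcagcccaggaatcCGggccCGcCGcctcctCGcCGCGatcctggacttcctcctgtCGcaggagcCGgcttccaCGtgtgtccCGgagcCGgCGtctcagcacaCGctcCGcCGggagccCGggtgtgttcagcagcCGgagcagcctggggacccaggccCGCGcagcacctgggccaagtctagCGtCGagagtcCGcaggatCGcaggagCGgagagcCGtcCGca
Tcf21: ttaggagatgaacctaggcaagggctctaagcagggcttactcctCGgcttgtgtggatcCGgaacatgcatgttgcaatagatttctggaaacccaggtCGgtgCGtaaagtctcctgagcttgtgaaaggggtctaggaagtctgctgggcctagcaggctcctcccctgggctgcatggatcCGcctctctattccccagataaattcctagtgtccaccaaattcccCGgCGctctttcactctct
CG pairs numbered 27 in the window of Wt1, 7 in that of Tbx15 and 7 in that of Tcf21. Over all 33469 promoter windows of this length the median was 5, and 92.3% of them held fewer CG pairs than Wt1, against 54.8% for Tbx15 and for Tcf21. GC content was 71.6% for Wt1, 58.4% for Tbx15 and 53.6% for Tcf21, beside a median of 51.2%. These are descriptions of sequence only, as neither methylation nor factor binding was measured.

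Positional genes differed in both directions. The list holds homeobox and T-box genes and also Wt1 and Tcf21, which are neither. Of its 40 tested members, 8 were higher and 13 lower in SAT, beside 6.9% and 4.96% of all genes. The median log2 fold change was -0.71, beside -0.01 for all genes. These calls include Tbx15, Wt1 and Tcf21, described above. Irx2, Irx5 and Irx3, Iroquois homeobox genes, were among the higher ones. Irx2 (gene 306657) measured 18.7 to 412 CPM in SAT (median 163) and 0.153 to 4.39 CPM in VAT (median 0.672) (log2 fold change 7.29, SE 0.97, edgeR adjusted p = 0.000956). Irx5 (gene 498918) measured 10.4 to 32.7 CPM in SAT (median 22.3) and 0 to 1.15 CPM in VAT (median 0.441) (log2 fold change 5.39, SE 0.53, edgeR adjusted p = 7.86e-05). Irx3, named after its values were seen, measured 5.83 to 62.2 CPM in SAT (median 33.7) and 1.89 to 3.57 CPM in VAT (median 2.64) (log2 fold change 3.6, SE 0.53, edgeR adjusted p = 0.00184). No VAT library reached the lowest SAT library in any of the 3. Within SAT all 3 were lowest in SAT 3 and SAT 9, the libraries low in milk genes, and highest in SAT 1 and SAT 11, the libraries richest in them. Irx2 measured 18.7 and 30.3 CPM in SAT 3 and SAT 9, against 342 and 412 CPM in SAT 1 and SAT 11. With SAT 3 and SAT 9 as the only SAT libraries, the log2 fold changes of Irx2, Irx5 and Irx3 were 4.36, 4.58 and 1.6 (adjusted p = 0.0133, 0.00293 and 0.0511), and without VAT 11 that of Irx2 was 8.34. Shox2, a short stature homeobox gene, had 4.44 to 31.1 CPM in SAT (median 7.86) and 0 to 5.95 CPM in VAT (median 0.748) (log2 fold change 2.69, SE 0.77, edgeR adjusted p = 0.0405), with SAT 5 alone over 10 CPM. It passed in 4 of the 12 fits that each leave out 1 library and missed the threshold without SAT 1, SAT 3, SAT 5, SAT 11, VAT 3, VAT 5, VAT 9 or VAT 11 (adjusted p between 0.0524 and 0.0894).

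On the visceral side, Osr1 and Nr2f1, named after their values were seen, code for a zinc finger factor of intermediate mesoderm and for the nuclear receptor COUP-TFI. Osr1 measured 21.7 to 28.2 CPM in SAT (median 24.7) and 47.95 to 55.98 CPM in VAT (median 48.7) (log2 fold change -1.02, SE 0.11, edgeR adjusted p = 0.000119). Nr2f1 measured 1.72 to 13.05 CPM in SAT (median 9.36) and 32.6 to 49.2 CPM in VAT (median 42.6) (log2 fold change -2.32, SE 0.34, edgeR adjusted p = 0.00184). All SAT libraries lay below all VAT libraries in both genes.

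**Figure D2:**
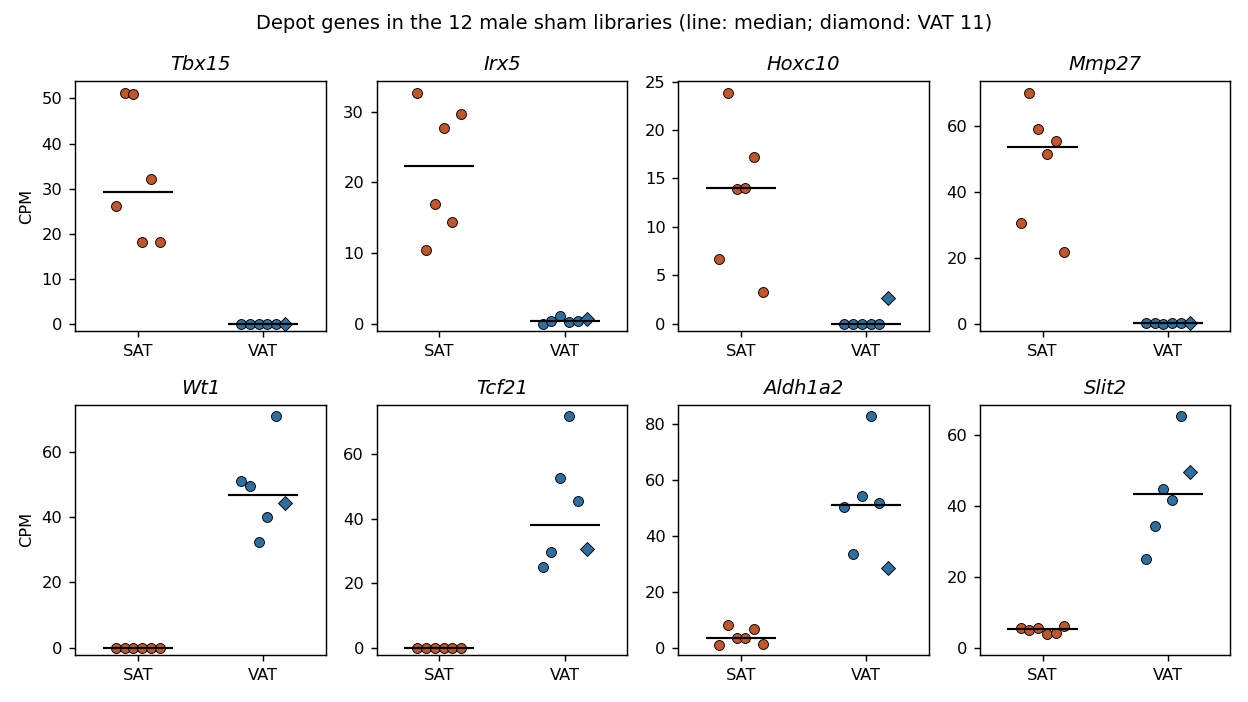
CPM of 8 depot genes in each male sham library (y axes), SAT on the left and VAT on the right of each panel, with lines at medians and a diamond for VAT 11. Tbx15, Irx5, Hoxc10 and Mmp27 in the upper row were higher in SAT in every library, and Wt1, Tcf21, Aldh1a2 and Slit2 in the lower row were lower.

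Hox genes lie in 4 clusters, and their paralog number follows the body axis from head to tail. Of 25 measured Hox genes, 17 were tested. Among 14 tested genes with paralog numbers 1 to 8, none was higher and 7 were lower in SAT, 13 of 14 fold changes were negative and the median was -1.33; without VAT 11, 9 were lower. Of 3 tested genes numbered 9 to 13, 2 were higher, Hoxc9 and Hoxc10, and none lower. The Hox genes other than Hoxc10 were named after their values were seen. Hoxa4 measured 2.87 to 11.5 CPM in SAT (median 4.6) and 9.798 to 35.5 CPM in VAT (median 30.8) (log2 fold change -2.3, SE 0.37, edgeR adjusted p = 0.00349), and its lowest VAT library was VAT 11. Hoxc5, with 1.58 to 6.28 CPM in SAT (median 3.802) and 6.87 to 14.03 CPM in VAT (median 12.9), did not overlap between depots (log2 fold change -1.56, SE 0.3, edgeR adjusted p = 0.0082). Hoxb3, Hoxc4, Hoxb5 and Hoxb7 were lower in SAT, with log2 fold changes of -1.15, -1.17, -1.71 and -2.56, with some overlap of libraries. The Hoxb7 value was -1.84 without VAT 11. Without SAT 1, SAT 11 and VAT 11, Hoxb5 and Hoxb7 missed the threshold (adjusted p = 0.0718 and 0.0544).

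Hoxc10 (gene 315338) is a gene of the tail end of the HoxC cluster. It measured 3.299 to 23.9 CPM in SAT (median 13.97) and 0 to 2.63 CPM in VAT (median 0) (log2 fold change 4.9, SE 1.02, edgeR adjusted p = 0.0118), and VAT 11 alone, at 2.63 CPM, was above 0 in VAT. Without that library VAT was at 0 throughout, and the fitted value, which then depends on the prior count, was 9.51 (adjusted p = 0.00141). Hoxc9 measured 10.3 to 37.5 CPM in SAT (median 23.6) and 2.08 to 20.04 CPM in VAT (median 4.02) (log2 fold change 1.8, SE 0.51, edgeR adjusted p = 0.0389), where the highest VAT library was again VAT 11. The Hoxc9 difference was 2.54 without VAT 11 (adjusted p = 0.00183). It missed the threshold with the rat as a block (adjusted p = 0.0628) and without SAT 1, SAT 3, SAT 5, SAT 7, VAT 1, VAT 3, VAT 5, VAT 7 or VAT 9 (adjusted p between 0.0544 and 0.0753). Their neighbour Hoxc8 averaged 14.8 CPM in SAT and 14.8 CPM in VAT (edgeR adjusted p = 0.999).

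**Figure D3:**
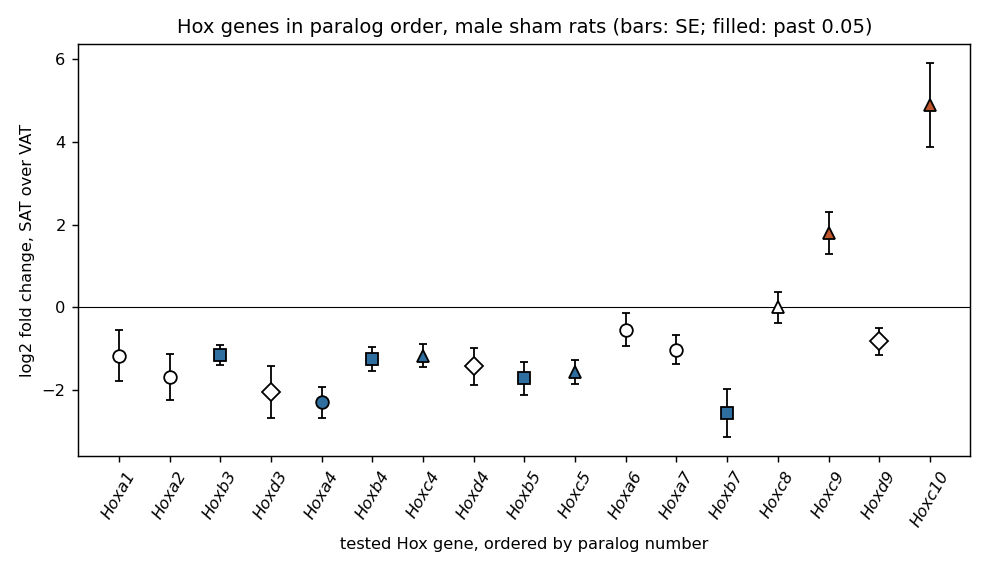
Log2 fold change, SAT over VAT, with its SE (y axis) of the 17 tested Hox genes in order of paralog number (x axis); circles, squares, triangles and diamonds are the clusters HoxA, HoxB, HoxC and HoxD, and filled symbols passed an adjusted p of 0.05. All called genes up to Hoxb7 lie below 0, and Hoxc9 and Hoxc10 lie above it.

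Mesothelial genes were lower in SAT where they were called, with 1 exception. Of 16 tested members, 1 was higher and 7 were lower, with a median of -2.17. Fold changes of all tested members were split, 7 positive and 9 negative. Without VAT 11, 3 were called higher and 6 lower, beside 9.54% and 5.45% of all genes. The 3 genes detailed next are all from the lower side. Msln (gene 60333), mesothelin, a surface protein of mesothelial cells, measured 0 to 1.72 CPM in SAT (median 0.569) and 4.43 to 294 CPM in VAT (median 53.5) (log2 fold change -7.05, SE 1.1, edgeR adjusted p = 0.00269). Nkain4 (gene 296469) measured 0.694 to 1.79 CPM in SAT (median 0.836) and 7.96 to 35.2 CPM in VAT (median 12.5) (log2 fold change -4.1, SE 0.46, edgeR adjusted p = 0.000213). Rspo1 (gene 313589), a secreted amplifier of WNT signals, measured 3.896 to 8.44 CPM in SAT (median 4.799) and 19.7 to 53.96 CPM in VAT (median 30.1) (log2 fold change -2.54, SE 0.29, edgeR adjusted p = 0.000264). VAT levels of Msln spread widely, and for all 3 genes every SAT library lay below every VAT library. The summed level of the whole list overlapped between depots, at 231 to 1760 CPM in SAT and 321 to 1136 CPM in VAT, with the highest SAT sum in SAT 1 and the highest VAT sum in VAT 11.

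Retinoic acid, a vitamin A derivative that acts through nuclear receptors, is made by the aldehyde dehydrogenases of the Aldh1a family. All 3 of them were lower in SAT. Aldh1a2 (gene 116676), the main embryonic enzyme, measured 0.861 to 7.95 CPM in SAT (median 3.58) and 28.5 to 82.9 CPM in VAT (median 50.9) (log2 fold change -3.65, SE 0.47, edgeR adjusted p = 0.000693). Aldh1a1 (gene 24188) measured 0.464 to 8.67 CPM in SAT (median 1.97) and 16.1 to 1301 CPM in VAT (median 96.1) (log2 fold change -6.42, SE 1.19, edgeR adjusted p = 0.0075), with VAT 11 at 1301 CPM, and the difference was -4.68 without that library (adjusted p = 0.00344). Aldh1a3 (gene 266603) measured 12.2 to 41.6 CPM in SAT (median 20.2) and 33.1 to 107 CPM in VAT (median 78.4) (log2 fold change -1.7, SE 0.32, edgeR adjusted p = 0.0082). Aldh1a1 and Aldh1a2 did not overlap between depots, whereas the lowest VAT library of Aldh1a3, VAT 1, lay within the range of SAT.

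The called genes for retinoid binding and storage were higher in SAT. Crabp1 (gene 25061), a cytosolic retinoic acid binder, measured 8.07 to 38.3 CPM in SAT (median 22.05) and 0 to 2.49 CPM in VAT (median 0.365) (log2 fold change 5.07, SE 0.75, edgeR adjusted p = 0.00186), and its difference was 6.16 without VAT 11. Rbp4, the retinol carrier of blood, did not pass, with 99.6 to 978 CPM in SAT (median 855) and 368 to 1335 CPM in VAT (median 859) (log2 fold change -0.38, SE 0.53, edgeR adjusted p = 0.644). Its relative Crabp2 and Lrat, the enzyme that esterifies retinol for storage, were named after their values were seen. Crabp2 measured 2.54 to 308 CPM in SAT (median 81.1) and 0.652 to 4.53 CPM in VAT (median 2.97) (log2 fold change 5.26, SE 1.00, edgeR adjusted p = 0.00823) and Lrat 4.99 to 27.1 CPM in SAT (median 18.1) and 2.17 to 7.17 CPM in VAT (median 3.89) (log2 fold change 1.93, SE 0.45, edgeR adjusted p = 0.0191). Crabp2 was low in SAT 3 and SAT 9, at 6.66 and 2.54 CPM, as the milk genes were, and high in SAT 1 and SAT 11, at 308 and 176 CPM. With SAT 3 and SAT 9 as the only SAT libraries it differed by 0.69 (adjusted p = 0.581). With the rat as a block Lrat missed the threshold (adjusted p = 0.0703). These 6 were the called members among 20 tested retinoid genes, 3 in each direction, and the list median was -0.20. The whole retinoid list summed to 1155 to 4671 CPM in SAT and 5025 to 6066 CPM in VAT.

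The remaining genes with the largest differences came from varied families. Among those higher in SAT, Mmp27 (gene 300340), a matrix metalloproteinase, measured 21.8 to 69.97 CPM in SAT (median 53.5) and 0.128 to 0.292 CPM in VAT (median 0.266) (log2 fold change 7.59, SE 0.38, edgeR adjusted p = 3.58e-07). Il1r2 (gene 117022), the decoy receptor that binds interleukin 1 without signalling, measured 18.6 to 46.6 CPM in SAT (median 34.8) and 0.541 to 1.82 CPM in VAT (median 0.882) (log2 fold change 5.00, SE 0.32, edgeR adjusted p = 4.05e-06). Stmn2 (gene 84510), a tubulin-binding protein of growing axons, measured 11.8 to 30.97 CPM in SAT (median 13.8) and 0.135 to 1.303 CPM in VAT (median 0.431) (log2 fold change 4.9, SE 0.43, edgeR adjusted p = 4.48e-05). Depots were far apart in every library for these 3.

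Some genes of this group varied widely within SAT. They were Tmprss4, a transmembrane serine protease of epithelia, at 4.93 to 230 CPM in SAT (median 58.05) and 0 to 0.521 CPM in VAT (median 0.144), and Trim29, a tripartite motif protein of squamous epithelium, at 4.04 to 164 CPM in SAT (median 53.1) and 0.135 to 2.78 CPM in VAT (median 1.25). Rasal1, a Ras GTPase-activating protein, measured 3.896 to 199.6 CPM in SAT (median 63.7) and 0.782 to 2.55 CPM in VAT (median 1.43). Slc38a3, a glutamine transporter, measured 6.13 to 197 CPM in SAT (median 52.3) and 0.459 to 3.19 CPM in VAT (median 1.99). Their log2 fold changes were 8.4, 5.6, 5.57 and 5.3 (adjusted p = 0.00103, 0.0037, 0.00247 and 0.00452). Each was lowest in SAT 3 and SAT 9, as the milk protein genes were: Tmprss4 measured 6.33 and 4.93 CPM there, against 230 and 96.4 CPM in SAT 1 and SAT 11. With SAT 3 and SAT 9 as the only SAT libraries, the log2 fold changes of the 4 genes were 4.67, 2.07, 2.15 and 1.7 (adjusted p = 0.00197, 0.147, 0.0355 and 0.124).

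Among genes lower in SAT, Acsbg1 (gene 171410), an acyl-CoA synthetase for very long chain fatty acids, measured 0.155 to 1.004 CPM in SAT (median 0.358) and 3.79 to 144 CPM in VAT (median 85.1) (log2 fold change -7.41, SE 0.82, edgeR adjusted p = 0.000188). Vipr2 (gene 29555), a receptor for vasoactive intestinal peptide, measured 1.03 to 8.44 CPM in SAT (median 3.8) and 63.3 to 187 CPM in VAT (median 129) (log2 fold change -4.9, SE 0.4, edgeR adjusted p = 2.79e-05). Grb14 (gene 58844), an adaptor that restrains the insulin receptor, measured 5.45 to 20.3 CPM in SAT (median 11.4) and 59.4 to 124 CPM in VAT (median 87.9) (log2 fold change -2.92, SE 0.29, edgeR adjusted p = 9.94e-05). Slit2 (gene 360272), a secreted guidance cue, measured 3.75 to 6.02 CPM in SAT (median 5.27) and 25.02 to 65.6 CPM in VAT (median 43.3) (log2 fold change -3.12, SE 0.23, edgeR adjusted p = 1.14e-05). SAT and VAT did not overlap in these 4 genes, and all of them passed without SAT 1, SAT 11 and VAT 11.

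Lower-expressed genes with fully separate groups included Ucma, a matrix protein of cartilage, the anion exchanger Slc26a3, the protease inhibitor family member Wfdc21 and Klk1c3. Their log2 fold changes were -5.87, -5.17, -5.23 and -5.53 (adjusted p = 0.00147, 0.00189, 0.000956 and 0.000289). Klk1c3 belongs to a family of near-identical kallikrein genes, so its counts are uncertain. Prom1, or prominin 1, a membrane protein of epithelial and stem cells, owed the size of its fold to 1 library. It measured 6.88 to 14.1 CPM in SAT (median 11.3) and 16.1 to 2788 CPM in VAT (median 26.1), and the highest value was that of VAT 11. The log2 fold change was -5.5 with all libraries (adjusted p = 0.0336) and -1.16 without VAT 11 (adjusted p = 0.0065). The call was lost with the rat as a block (adjusted p = 0.232) and without SAT 1, SAT 3, SAT 5, SAT 7 or SAT 11 (adjusted p between 0.0570 and 0.0775).

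Mast cells are tissue immune cells whose granules hold histamine and proteases, and their genes were higher in SAT almost throughout. Of 11 tested genes, 10 were higher in SAT and none lower, with a median of 1.99, beside 6.9% higher and 4.96% lower among all genes. SAT lay above VAT without overlap for 9 of them, beside 3.12% of all genes. With the rat as a block 9 were higher and 1 lower. Their summed level was 316 to 411 CPM in SAT (median 382) and 102 to 133 CPM in VAT (median 120). Cpa3 (gene 54242), mast cell carboxypeptidase, measured 91.8 to 176 CPM in SAT (median 124) and 4.59 to 19.6 CPM in VAT (median 12.7) (log2 fold change 3.37, SE 0.29, edgeR adjusted p = 3.57e-05). Cma1 (gene 25627), chymase, measured 79.1 to 138 CPM in SAT (median 108) and 4.74 to 21.2 CPM in VAT (median 11.8) (log2 fold change 3.12, SE 0.29, edgeR adjusted p = 6.27e-05). Ms4a2, a chain of the high-affinity IgE receptor, measured 18.2 to 27.9 CPM in SAT (median 24.3) and 1.38 to 5.49 CPM in VAT (median 2.68) (log2 fold change 3.02, SE 0.27, edgeR adjusted p = 4.7e-05). Cma1 was lowest in SAT 3 and SAT 9, the libraries low in milk genes, at 90.4 and 79.1 CPM, above every VAT library. Hdc, which makes histamine, measured 8.93 to 14.2 CPM in SAT (median 10.95) and 2.397 to 3.39 CPM in VAT (median 2.69) (log2 fold change 1.99, SE 0.19, edgeR adjusted p = 6.28e-05). Fcer1a and Tpsb2, the other IgE receptor chain and a tryptase, and Kit, the stem cell factor receptor, were named after their values were seen. They differed by 3.27, 2.19 and 0.77 (adjusted p = 0.000639, 0.00139 and 0.0205), and Kit missed the threshold with the rat as a block (adjusted p = 0.0612).

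Other immune lists showed fewer calls. Of 28 macrophage genes 4 were higher and none lower (median 0.43), beside 6.9% and 4.96% of all genes. Without VAT 11, 2 were higher, beside 9.54% of all genes. Of 16 T and NK cell genes 1 was higher (median 0.67), and of 8 B and plasma cell genes 2 were higher (median 0.90). The 34 interferon response genes and the 10 MHC class II genes held no call in either direction. F13a1, a coagulation factor chain made by resident macrophages, measured 128 to 428 CPM in SAT (median 240.1) and 79.1 to 184 CPM in VAT (median 119.6) (log2 fold change 1.11, SE 0.29, edgeR adjusted p = 0.0288) and missed the threshold without SAT 3, SAT 5 or VAT 3 (adjusted p between 0.0530 and 0.0580). Irf4 (gene 291100), a transcription factor of lymphocytes and adipocytes, measured 25.8 to 125 CPM in SAT (median 55.7) and 4.69 to 13.2 CPM in VAT (median 8.76) (log2 fold change 2.82, SE 0.37, edgeR adjusted p = 0.00078). Cxcl13 (gene 498335), a chemokine that attracts B cells, measured 36.9 to 164 CPM in SAT (median 71.5) and 2.12 to 12.8 CPM in VAT (median 5.68) (log2 fold change 3.63, SE 0.53, edgeR adjusted p = 0.00173). The depots did not overlap in Irf4 or Cxcl13. SAT 11 held more lymphocyte RNA than its group: B and plasma cell genes summed to 1549 CPM there, against 359 to 584 CPM in the other SAT libraries. T and NK cell genes summed to 1084 CPM in SAT 11, against 122.5 to 206.9 CPM in the other SAT libraries. Without SAT 1, SAT 11 and VAT 11, no T and NK cell gene was higher and 3 were lower, with a median of -0.65, and the B and plasma cell median was 0.04.

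Type I collagen was higher in SAT. Col1a1 (gene 29393) and Col1a2 (gene 84352), the chains of type I collagen, were among the most highly expressed genes of SAT. Col1a1 measured 7255 to 34030 CPM in SAT (median 16820) and 1310 to 4878 CPM in VAT (median 3523) (log2 fold change 2.59, SE 0.47, edgeR adjusted p = 0.00628), and Col1a2 measured 8796 to 35510 CPM in SAT (median 19540) and 2218 to 7846 CPM in VAT (median 5374) (log2 fold change 2.06, SE 0.42, edgeR adjusted p = 0.0116). Both depots varied by several fold between rats, but no library crossed over. Col14a1, which binds to fibrils, was also higher, with 325 to 831 CPM in SAT (median 534) and 192 to 375 CPM in VAT (median 221) (log2 fold change 1.22, SE 0.26, edgeR adjusted p = 0.0145). In contrast, Col11a1 (gene 25654), best known from cartilage, was lower, with 0.464 to 1.55 CPM in SAT (median 1.22) and 5.41 to 27.6 CPM in VAT (median 15.97) (log2 fold change -3.73, SE 0.45, edgeR adjusted p = 0.000336). Of 17 collagen genes 4 were higher and 2 lower, and their median was -0.42. The collagen sum was 20660 to 94460 CPM in SAT (median 57205) and 14250 to 32390 CPM in VAT (median 23525).

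Among 37 other matrix genes, 7 were higher and 3 lower in SAT (median 0.15), beside 6.9% and 4.96% of all genes. Ccn5, a secreted regulator of WNT signals in mesenchyme, measured 44.8 to 86.1 CPM in SAT (median 70.03) and 5.82 to 22.4 CPM in VAT (median 16.6) (log2 fold change 2.15, SE 0.34, edgeR adjusted p = 0.00293). Postn, periostin, measured 1149 to 4350 CPM in SAT (median 2133) and 499 to 1008 CPM in VAT (median 865) (log2 fold change 1.66, SE 0.36, edgeR adjusted p = 0.014). Lox, which crosslinks collagen, measured 39.7 to 143 CPM in SAT (median 100.1) and 13.2 to 45.7 CPM in VAT (median 33.2) (log2 fold change 1.5, SE 0.36, edgeR adjusted p = 0.0204) with a slight overlap. Cilp, a matrix protein of cartilage and fibrous tissue, was lower, with 17.4 to 50.4 CPM in SAT (median 31.1) and 75.5 to 254 CPM in VAT (median 132) (log2 fold change -2.14, SE 0.36, edgeR adjusted p = 0.00459).

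Progenitor and fibroblast genes were split. Of 27 tested, 5 were higher and 3 lower (median -0.07), beside 6.9% and 4.96% of all genes. Fap, fibroblast activation protein, measured 28.4 to 103 CPM in SAT (median 70.7) and 4.46 to 16.7 CPM in VAT (median 14.7) (log2 fold change 2.52, SE 0.4, edgeR adjusted p = 0.00315). Its relative Dpp4, a peptidase that marks early adipose progenitors in mouse subcutaneous fat, measured 50.1 to 138 CPM in SAT (median 94.3) and 28.3 to 55.7 CPM in VAT (median 36.1) (log2 fold change 1.28, SE 0.25, edgeR adjusted p = 0.0085). Cxcl14, a chemokine of fibroblasts, measured 79.9 to 239 CPM in SAT (median 212) and 15.6 to 87.7 CPM in VAT (median 24.9) (log2 fold change 2.33, SE 0.45, edgeR adjusted p = 0.00869). Smoc2, a matrix-associated calcium-binding protein, was lower, with 11.04 to 26.2 CPM in SAT (median 18.6) and 50.05 to 111 CPM in VAT (median 73.6) (log2 fold change -1.98, SE 0.27, edgeR adjusted p = 0.000956). Fap and Smoc2 separated the depots in every library, whereas Dpp4 and Cxcl14 overlapped.

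Genes of the mature adipocyte had negative fold changes in 26 of 27 cases, but 1 passed the test, as lower in SAT. The list median was -0.94. Cidec (gene 500292), which enlarges lipid droplets, measured 250.4 to 1556 CPM in SAT (median 1440) and 1986 to 4256 CPM in VAT (median 3190) (log2 fold change -1.5, SE 0.44, edgeR adjusted p = 0.0438). It missed the threshold without SAT 1, SAT 3, SAT 5, SAT 7, VAT 1, VAT 3, VAT 5, VAT 7 or VAT 9 (adjusted p between 0.0539 and 0.0785). Adipoq (gene 246253), the hormone adiponectin, measured 452 to 5745 CPM in SAT (median 4505) and 4149 to 7937 CPM in VAT (median 7119) (log2 fold change -0.87, SE 0.52, edgeR adjusted p = 0.271). Lep (gene 25608), leptin, measured 19.6 to 1167 CPM in SAT (median 617) and 774 to 1230 CPM in VAT (median 1118) (log2 fold change -0.97, SE 0.67, edgeR adjusted p = 0.335). The lowest values belonged to SAT 1 and SAT 11: Adipoq was 926 and 452 CPM there and 5745, 4112, 4897 and 5627 CPM in SAT 3, SAT 5, SAT 7 and SAT 9. Without SAT 1, SAT 11 and VAT 11, 8 of the 27 genes were lower in SAT, beside 4.48% of all genes, with 2 lower without VAT 11 alone. The list median without those 3 libraries was nearer to 0, at -0.51. With SAT 3 and SAT 9 as the only SAT libraries it was -0.3, and no gene of the list was called.

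Further fixed markers did not pass either. Pparg, the master regulator of adipogenesis, differed by -1.32 (adjusted p = 0.0789), and with the rat as a block it passed (adjusted p = 0.0456). The differences of Cebpa, Fabp4, Lpl, Plin1, Lipe and Pnpla2, genes of adipocyte identity, fatty acid handling and lipolysis, lay between -1.18 for Cebpa and -0.75 for Lpl, with adjusted p of 0.131, 0.186, 0.149, 0.187, 0.132 and 0.0999. Without SAT 1, SAT 11 and VAT 11, Pparg, Pnpla2, Lipe and Cebpa passed as lower in SAT (adjusted p = 0.0085, 0.0271, 0.0414 and 0.0498). Their differences in that fit were -0.99, -0.76, -0.8 and -0.8, smaller than with all libraries. The secreted proteins resistin (Retn) and adipsin (Cfd) differed by -1.08 and -0.67 (adjusted p = 0.157 and 0.321). Agt, angiotensinogen, measured 157 to 1422 CPM in SAT (median 983) and 1745 to 2911 CPM in VAT (median 2207) and Nnat, neuronatin, 86.1 to 986 CPM in SAT (median 693) and 892 to 2430 CPM in VAT (median 1898). Their differences of -1.42 and -1.66 missed the threshold (adjusted p = 0.0696 and 0.0668) and passed without SAT 1, SAT 11 and VAT 11, at -1.01 and -1.3 (adjusted p = 0.0119 and 0.0041).

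Lipogenic enzymes made a mixed picture. Of 25 genes of de novo lipogenesis, 6 were higher and 2 lower in SAT, beside 6.9% and 4.96% of all genes. Their median was 0.05. Fasn (gene 50671), fatty acid synthase, measured 4092 to 27490 CPM in SAT (median 9552) and 766 to 3239 CPM in VAT (median 1951) (log2 fold change 2.75, SE 0.55, edgeR adjusted p = 0.0105). Me1 (gene 24552), malic enzyme, a source of NADPH for fat synthesis, measured 350 to 765 CPM in SAT (median 506) and 160.5 to 232 CPM in VAT (median 181) (log2 fold change 1.52, SE 0.21, edgeR adjusted p = 0.00105). Neither overlapped, and Fasn was highest in SAT 1 and SAT 11, at 27490 and 24360 CPM, the libraries richest in milk genes. In SAT 3 and SAT 9 it measured 4092 and 4239 CPM, and with these as the only SAT libraries its log2 fold change was 1.09 and the call was lost (adjusted p = 0.221). Acacb, the acetyl-CoA carboxylase at mitochondria, measured 51.4 to 1706 CPM in SAT (median 494) and 21.5 to 67.4 CPM in VAT (median 57.1) (log2 fold change 3.8, SE 0.78, edgeR adjusted p = 0.0114), missed the threshold with the rat as a block (adjusted p = 0.064) and did so without SAT 1, SAT 11 and VAT 11 (adjusted p = 0.0518). Acly, ATP citrate lyase, and Scd, stearoyl-CoA desaturase, did not pass, with differences of 0.76 and -0.99 (adjusted p = 0.0704 and 0.332). Dgat2, which adds the last fatty acid to triglyceride, differed by -0.6 (adjusted p = 0.45), and Gpam, which adds the first one, by -0.54 (adjusted p = 0.349).

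Of 32 genes of lipolysis and adrenergic control, 3 were higher and 2 lower (median -0.60), beside 6.9% and 4.96% of all genes. Without VAT 11, 4 were lower, beside 5.45% of all genes. Adra2a, an adrenergic receptor that restrains lipolysis, was higher, with 5.28 to 18.1 CPM in SAT (median 8.51) and 1.303 to 3.51 CPM in VAT (median 2.76) (log2 fold change 1.84, SE 0.34, edgeR adjusted p = 0.00653). Adrb3, the receptor that drives it in rodents, measured 8.44 to 75.6 CPM in SAT (median 55.9) and 30.7 to 331 CPM in VAT (median 126) and did not pass with all libraries (log2 fold change -1.65, SE 0.58, edgeR adjusted p = 0.0765). Without VAT 11, Adrb3 was lower in SAT, with a log2 fold change of -1.85 (adjusted p = 0.0367). Plin2, a coat protein of small lipid droplets and of milk fat, measured 141 to 2308 CPM in SAT (median 853) and 110.4 to 185 CPM in VAT (median 157) (log2 fold change 2.73, SE 0.6, edgeR adjusted p = 0.0149) and missed the threshold with the rat as a block (adjusted p = 0.0754) and without SAT 1, SAT 11 and VAT 11 (adjusted p = 0.0626). Of 27 genes of fatty acid oxidation, 3 were higher. Among these, Pdk4, which blocks glucose oxidation, measured 42.4 to 389 CPM in SAT (median 129) and 15.4 to 33.8 CPM in VAT (median 29.5) (log2 fold change 2.67, SE 0.51, edgeR adjusted p = 0.0085), and Ucp3, an uncoupling protein of muscle, 10.6 to 80.9 CPM in SAT (median 27.02) and 3.07 to 12.6 CPM in VAT (median 4.99) (log2 fold change 2.36, SE 0.52, edgeR adjusted p = 0.0147). Within SAT, Acacb, Plin2, Pdk4 and Ucp3 were lowest in SAT 3 and SAT 9, the libraries low in milk genes. With these as the only SAT libraries, their log2 fold changes were 0.33, 0.05, 0.89 and 0.85, and none of the 4 passed (adjusted p = 0.679, 0.925, 0.158 and 0.404).

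Of 45 oxidative phosphorylation genes, 3 were lower in SAT and none higher, while 43 had negative fold changes (median -0.46). The 3 calls are a share near the 4.96% of all genes that were lower in SAT, and without VAT 11 there were 8. Of 16 thermogenic genes 1 was higher and 2 lower, with 3 higher without VAT 11. Ucp1, the uncoupling protein of brown fat, measured 1.46 CPM in SAT 3 and 0 in the other 11 libraries. Cidea did not pass, with 37.01 to 71.5 CPM in SAT (median 48.1) and 37.3 to 114 CPM in VAT (median 57.5) (log2 fold change -0.4, SE 0.26, edgeR adjusted p = 0.294). Ebf2, a transcription factor of committed and brown preadipocytes, was lower, with 13.3 to 64.3 CPM in SAT (median 38.4) and 84.2 to 149 CPM in VAT (median 126) (log2 fold change -1.61, SE 0.31, edgeR adjusted p = 0.00869). Slc27a2, a fatty acid transport protein, was also lower (log2 fold change -3.18, SE 0.49, edgeR adjusted p = 0.00247), and Tmem26, a beige adipocyte marker in mouse, was higher (log2 fold change 2.08, SE 0.39, edgeR adjusted p = 0.00798).

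The insulin-like growth factor axis held opposite changes at 1 imprinted locus. Igf2 (gene 24483), a fetal growth factor, measured 3.59 to 22.9 CPM in SAT (median 12.03) and 26.5 to 104 CPM in VAT (median 86.4) (log2 fold change -2.55, SE 0.44, edgeR adjusted p = 0.00505). H19 (gene 309122), the noncoding RNA next to it, measured 67.2 to 780.3 CPM in SAT (median 101) and 3.83 to 35.7 CPM in VAT (median 8.05) (log2 fold change 4.4, SE 0.81, edgeR adjusted p = 0.0075). Every SAT library was below VAT for Igf2 and above VAT for H19. H19 was highest in SAT 3 and SAT 9, at 780.3 and 397 CPM, the libraries with the most muscle gene counts, and the part of muscle in its difference was not tested. Igfbp5, a binding protein for these growth factors, was higher, with 458 to 1147 CPM in SAT (median 799.6) and 197 to 418 CPM in VAT (median 259) (log2 fold change 1.53, SE 0.27, edgeR adjusted p = 0.00529). Igf1 measured 79.3 to 435 CPM in SAT (median 289) and 244 to 498 CPM in VAT (median 420.5) and did not pass (log2 fold change -0.6, SE 0.38, edgeR adjusted p = 0.294). Over the 14 tested genes of the axis, 3 were higher and 2 lower.

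Milk protein genes were measured in SAT of these males at levels that differed by orders of magnitude between rats. Csn1s1 (gene 24284), alpha-s1-casein, measured 260800, 1456, 72480, 83540, 0.598 and 203400 CPM in SAT 1, 3, 5, 7, 9 and 11, against at most 0.439 CPM in VAT. The total behind these CPM covers tested genes only and leaves Csn1s1 out, so they exceed its share of all counts. That share was 20.6% in SAT 1 and 18.1% in SAT 11. Csn2, Csn1s2a and Csn3, further caseins, and the whey proteins Wap and Lalba were named after their values were seen. In the order of the same rats, Csn2 measured 4643, 40.6, 1350, 1007, 0.299 and 2740 CPM, and Csn3 12790, 129, 3072, 2990, 0.1495 and 8412 CPM. SAT 1 and SAT 11 were highest and SAT 9 lowest for all 3 caseins. Csn1s2a reached 6049 CPM, Wap 1983 CPM and Lalba 13750 CPM in SAT 1, against at most 0.130 CPM in VAT. These genes fell under the filter on counts and were not tested, since 1 or more SAT libraries held almost none.

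Csn1s2b, a further casein, passed with 0 to 461 CPM in SAT (median 126) and 0 to 5.56 CPM in VAT (median 0) (log2 fold change 7.58, SE 1.68, edgeR adjusted p = 0.0159), where VAT 11 alone held counts in VAT. Without that library VAT was at 0 throughout, and the fitted value, which then depends on the prior count, was 13.26 (adjusted p = 0.023). Of 15 milk protein genes, 4 were tested and 2 were called higher. Leaving out 1 library lowers the number of libraries the filter asks for, so that 13 were tested without VAT 11 and 11 called higher. Csn1s1, Csn2, Csn3, Wap and Lalba were each called in 7 of the 12 fits that leave out 1 library. Csn1s1 passed in every such fit that tested it (edgeR adjusted p at most 0.00534) and fell under the filter in the others. Members near 0 in VAT pass the filter only through SAT, where they are high, so the direction of such calls carries little weight. Without SAT 1, SAT 11 and VAT 11 no milk protein gene was called. The log2 fold change of the milk fat globule protein Mfge8 was 3.71 (adjusted p = 0.0142) with all libraries, missed the threshold with the rat as a block (adjusted p = 0.0976) and was -0.27 with SAT 3 and SAT 9 as the remaining SAT libraries.

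Prolactin reaches casein genes through the transcription factor STAT5, whose sites have the form TTCNNNGAA, a palindrome that reads the same on both strands. Since the caseins varied together across SAT libraries, the stretch from 150 to 51 bases before the start is shown for the 4 caseins that hold the motif, with the motif in capitals. It is from RefSeq on GRCr8, in transcript orientation, at chr14:20638900-20638999, minus strand for Csn1s1, chr14:20601674-20601773, plus strand for Csn2, chr14:20574522-20574621, minus strand for Csn1s2a and chr14:20545669-20545768, minus strand for Csn1s2b.
Csn1s1: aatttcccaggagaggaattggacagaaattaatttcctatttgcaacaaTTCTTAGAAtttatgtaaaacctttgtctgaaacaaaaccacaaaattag
Csn2: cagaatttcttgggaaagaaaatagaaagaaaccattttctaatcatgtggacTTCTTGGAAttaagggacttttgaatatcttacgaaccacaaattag
Csn1s2a: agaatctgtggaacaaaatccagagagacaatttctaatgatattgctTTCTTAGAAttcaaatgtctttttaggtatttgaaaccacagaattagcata
Csn1s2b: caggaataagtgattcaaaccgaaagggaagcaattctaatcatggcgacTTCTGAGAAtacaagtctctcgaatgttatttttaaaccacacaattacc
The motif begins 100, 97, 102 and 100 bases before the starts of Csn1s1, Csn2, Csn1s2a and Csn1s2b, and was found once in the 250 bases before each. Csn3, Wap and Lalba held no match there. Of all 33469 promoter windows, 2566 (7.67%) held it. A match describes the letters and is no evidence of binding in these samples.

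Epithelial genes followed the same libraries and also VAT 11. Their sum was 89.1 to 4503 CPM in SAT, lowest in SAT 9 and highest in SAT 1, and 111 to 262 CPM in 5 VAT libraries with 2568 CPM in VAT 11. Of 25 tested genes 1 was called with all libraries, higher in SAT. Without VAT 11, 31 genes were tested and 24 called higher, beside 9.54% of all genes. The filter then asks for fewer libraries, and members low in VAT can pass it only through SAT. The direction of such calls carries little weight. Without SAT 1, SAT 11 and VAT 11, 6 of 19 tested genes were higher. With SAT 3 and SAT 9 as the only SAT libraries none was called, and the median was -1.32. The gene called with all libraries was Pkp3, plakophilin 3 of desmosomes, with 1.05 to 64.05 CPM in SAT (median 23.6) and 0.918 to 10.5 CPM in VAT (median 1.704) (log2 fold change 3.16, SE 0.92, edgeR adjusted p = 0.0434). Its difference was 4.1 without VAT 11. It missed the threshold with the rat as a block (adjusted p = 0.0535) and without SAT 1, SAT 5, SAT 7, SAT 11, VAT 1, VAT 3, VAT 5, VAT 7 or VAT 9 (adjusted p between 0.0613 and 0.0955). Lcn2 and Lbp, secreted proteins of innate defence also made by epithelia, measured 8.67 to 2510 CPM in SAT (median 686) and 6.58 to 45.9 CPM in VAT (median 27.3) and 8.67 to 2551 CPM in SAT (median 649) and 10.4 to 50.9 CPM in VAT (median 38.2). They differed by 4.91 and 4.75 (adjusted p = 0.0195 and 0.0177) and missed the threshold without SAT 1, SAT 11 and VAT 11 (adjusted p = 0.0787 and 0.0762) and with the rat as a block (adjusted p = 0.0785 and 0.108). In SAT 9 both were at 8.67 and 8.67 CPM, where the VAT medians were 27.3 and 38.2 CPM.

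Reproductive tract genes marked VAT 11. Their list summed to 3724 CPM in VAT 11, against 26.2 to 96.3 CPM in the other VAT libraries and 20.2 to 35 CPM in SAT. Named after their values were seen, the epididymal genes Crisp1, Adam7 and Lcn5 and the cysteine-rich secretory protein Crisp3 measured 369.9, 881, 913 and 2910 CPM in VAT 11. Svs4, a seminal vesicle protein, measured 135 CPM there, 3.14 CPM in SAT 9 and 0 in the other 10 libraries. In VAT 1, 3, 5, 7 and 9 Lcn5 measured 0, 0.153, 22.96, 18.5 and 5.08 CPM, against at most 0.747 CPM in SAT, so traces of this gene were also present in other VAT libraries.

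Skeletal muscle genes were higher in SAT in 15 of 17 tested cases and lower in none, beside 6.9% and 4.96% of all genes. Their median was 5.02. With the rat as a block 9 were higher, and in PCB 52 males none was called. Of 33 measured, 16 were not tested. Members near 0 in VAT pass the filter only through SAT, where they are high, so the direction of such calls carries little weight. Myl11, a fast muscle myosin light chain, measured 937 and 679.5 CPM in SAT 3 and SAT 9 and 165, 1.55, 15.8 and 105 CPM in SAT 1, SAT 5, SAT 7 and SAT 11, against 1.27 to 2.49 CPM in VAT (median 1.66). Actn3, alpha-actinin of fast fibres, had 1.24 to 922 CPM in SAT (median 133) and 0 to 1.49 CPM in VAT (median 0.8296) (log2 fold change 8.52, SE 1.47, edgeR adjusted p = 0.00511). Ckm, muscle creatine kinase, was not tested and reached 1587 CPM in SAT 3, against at most 0.564 CPM in VAT. SAT 3 and SAT 9, with the fewest milk gene counts, held the most muscle gene counts, and SAT 5 the fewest.

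**Figure D4:**
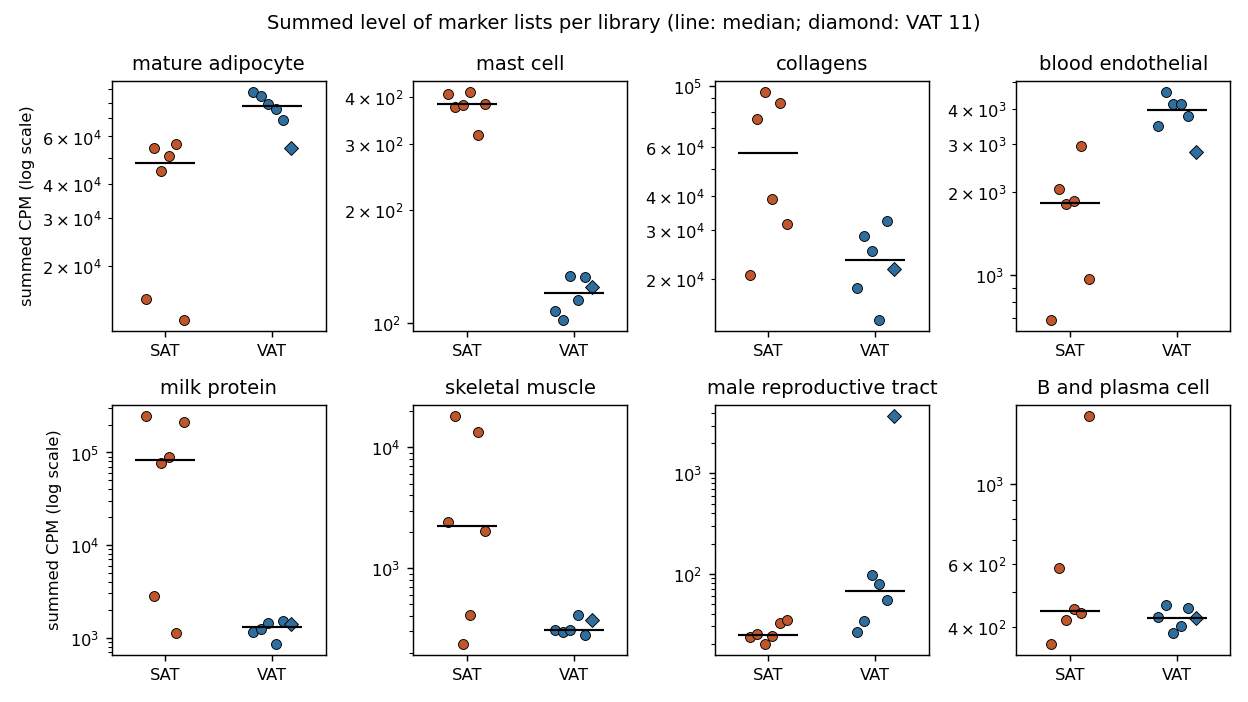
Summed CPM of 8 marker lists per male sham library (log y axes), SAT on the left and VAT on the right of each panel, with lines at medians and a diamond for VAT 11. Mast cell sums separate the depots, milk and muscle sums spread over orders of magnitude within SAT, and VAT 11 alone is high for the male reproductive tract list.

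Schwann cell and nerve genes were called in both directions, 6 higher and 2 lower of 20 (median 0.24). Sox10, a factor of Schwann cells that breast epithelium also expresses, measured 2.54 to 334 CPM in SAT (median 124) and 0.652 to 2.78 CPM in VAT (median 2.35) (log2 fold change 6.15, SE 1.06, edgeR adjusted p = 0.00511). Across SAT 1, 3, 5, 7, 9 and 11 Sox10 was 334, 6.82, 115, 132, 2.54 and 305 CPM, low in the same libraries as the milk genes. With SAT 3 and SAT 9 as the only SAT libraries it differed by 1.16 (adjusted p = 0.304). The whole list summed to 1016 to 2277 CPM in SAT, against 2361 to 3392 CPM in VAT.

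Of 23 blood endothelial genes, 5 were lower in SAT and none higher, and all 23 fold changes were negative (median -0.86). Without VAT 11, 8 were lower, beside 5.45% of all genes, and with the rat as a block 10. Without SAT 1, SAT 11 and VAT 11, 9 were lower, beside 4.48% of all genes, with a median of -0.62. With SAT 3 and SAT 9 as the only SAT libraries none was called, and the median was -0.37. Aqp1, a water channel of capillaries, measured 107 to 359.5 CPM in SAT (median 259.5) and 463 to 944 CPM in VAT (median 791) (log2 fold change -1.65, SE 0.31, edgeR adjusted p = 0.0075). Cldn5, a tight junction protein of endothelium, measured 16.2 to 100.3 CPM in SAT (median 53.9) and 122 to 341 CPM in VAT (median 172) (log2 fold change -1.76, SE 0.38, edgeR adjusted p = 0.0147). Pecam1, a junction protein of all endothelium, measured 65.95 to 136 CPM in SAT (median 85.3) and 132 to 190.1 CPM in VAT (median 176) (log2 fold change -0.86, SE 0.17, edgeR adjusted p = 0.011). With SAT 3 and SAT 9 as the only SAT libraries, Aqp1, Cldn5 and Pecam1 differed by -1.2, -1.48 and -0.52 and missed the threshold (edgeR adjusted p = 0.109, 0.141 and 0.295). The endothelial sum was 690 to 2930 CPM in SAT, lowest in SAT 1, and 2791 to 4593 CPM in VAT, lowest in VAT 11.

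Of 41 genes of adipogenic, WNT and BMP signalling, 3 were higher and 7 lower in SAT (median -0.32), beside 6.9% and 4.96% of all genes. Bmp6, a bone morphogenetic protein, measured 3.44 to 7.92 CPM in SAT (median 4.65) and 15.9 to 25.6 CPM in VAT (median 24.95) (log2 fold change -2.25, SE 0.21, edgeR adjusted p = 6.28e-05). Nog, noggin, which blocks such proteins, measured 2.27 to 5.34 CPM in SAT (median 3.87) and 7.43 to 16.5 CPM in VAT (median 9.48) (log2 fold change -1.43, SE 0.25, edgeR adjusted p = 0.00543). Wnt5b was lower (log2 fold change -2.13, SE 0.43, edgeR adjusted p = 0.0108), and Bmp3, which opposes BMP signals, was higher, with 11.4 to 28.5 CPM in SAT (median 19.1) and 1.17 to 5.36 CPM in VAT (median 3.11) (log2 fold change 2.59, SE 0.42, edgeR adjusted p = 0.00333). SAT and VAT were fully separate for Bmp6, Nog and Bmp3.

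Clu, the chaperone clusterin, was lower in SAT, with 170.3 to 437 CPM in SAT (median 208) and 609 to 1494 CPM in VAT (median 736) (log2 fold change -1.85, SE 0.3, edgeR adjusted p = 0.00332), among 21 complement and acute phase genes of which 6 were higher and 2 lower. Cfp, properdin, which stabilizes the complement convertase, was higher (log2 fold change 0.82, SE 0.15, edgeR adjusted p = 0.00798). Gstt1 and Gstp1, glutathione transferases, were lower (-1.65 and -1.16, adjusted p = 0.00517 and 0.011), as part of 3 lower and no higher calls among 29 xenobiotic metabolism genes. Of 15 clock genes, Npas2 and Nr1d2 were higher, by 1.16 and 0.77 (adjusted p = 0.0145 and 0.00857), and none was lower. Of 28 immediate early genes 1 was higher and 3 lower, beside 6.9% and 4.96% of all genes. Without VAT 11, 7 were lower, beside 5.45% of all genes. Jun, a subunit of the AP-1 factor, differed by -0.94 (adjusted p = 0.03), and missed the threshold without SAT 1, SAT 3, SAT 5, SAT 7, VAT 3, VAT 5 or VAT 9 (adjusted p between 0.0513 and 0.0642).

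Calls in further lists were few and spread over both directions. They are to be read beside 6.9% higher and 4.96% lower among all genes. Without VAT 11 these shares were 9.54% and 5.45%. Of 7 lymph node stroma genes 3 were higher and 1 lower, of 9 lymphatic endothelial genes 2 were higher and 2 lower, and of 7 neutrophil and eosinophil genes 2 were higher and none lower. Of 33 adipokines and secreted factors, 5 were higher and 1 lower (median -0.56). Of 26 unfolded protein and stress response genes 1 was higher and 1 lower, of 5 skin and hair genes none was higher and 1 lower, and of 4 reproductive tract genes none was higher and 1 lower. Among 23 genes of triglyceride synthesis, 27 of cholesterol synthesis and uptake and 24 of insulin and glucose handling, 1 was higher, 1 was higher and 1 was lower. Of 24 cell cycle genes 2 were higher and none lower, of 22 glucocorticoid response genes 2 were higher and 1 lower, and of 18 smooth muscle and pericyte genes 1 was higher and 1 lower. The 16 steroid hormone genes held no call. Without VAT 11, 4 cell cycle genes were higher, 4 glucocorticoid response genes were higher and 2 lower, 2 smooth muscle and pericyte genes were higher and 2 lower, 1 insulin and glucose gene was higher and 2 lower, and 2 fatty acid oxidation genes were lower.

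The same depot difference was larger in count in female sham rats. There 3544 of 11554 tested genes passed (30.7%), 1987 higher (17.2%) and 1557 lower in SAT (13.5%). Of the 1342 genes called in males, 1320 were tested in females and 79.9% had the same sign, against 61.4% of genes not called in males. A total of 549 were called in both in the same direction, or 40.9% of the male and 15.5% of the female calls, and 49 were called in opposite directions. One female library, SAT 8, had 27.8% of its counts in ribosomal protein genes, and without it 5860 genes passed in females. Female SAT held 0.729% to 3.59% of its counts in milk genes, against 0.113% to 24.7% in SAT of sham males.

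Sex and age at the start of exposure, 39 days in males and 42 days in females, differ together and cannot be told apart. The sexes were set against each other directly with an interaction term, male minus female depot difference, over 23 libraries. It passed for 1341 of 12086 genes (11.1%), 624 with a higher signed log2 fold change in males (5.16%) and 717 with a lower one (5.93%). Fasn was higher in SAT in males (2.75) and lower in SAT in females (-3.07, adjusted p = 0.00116), an interaction of 5.83 (SE 0.79, edgeR adjusted p = 0.000198). With SAT 3 and SAT 9 as the only male SAT libraries, the male Fasn value was 1.09 (edgeR adjusted p = 0.221). Irf4 also had opposite signs, with 2.82 in males and -3.03 in females (interaction 5.86, SE 0.73, adjusted p = 0.000124). Clcn4, a chloride and proton exchanger, differed by 2.42 in males and -1.55 in females (interaction adjusted p = 0.000252). In the opposite direction, Acsbg1 differed by -7.41 in males and 3.24 in females (interaction -10.63, SE 1.13, adjusted p = 1.85e-05). Sult1d1, a sulfotransferase, differed by -2.45 and 4.57 (interaction adjusted p = 1.37e-05), Wnt5b by -2.13 and 2.92 (interaction adjusted p = 0.00011) and Slit2 by -3.12 and 1.29 (interaction adjusted p = 0.000133), in males and females in that order. In male rats exposed to PCB 52, Acsbg1 differed by 1.91 (adjusted p = 0.59) and Sult1d1 by -0.19 (adjusted p = 0.927), so neither passed in that group of males.

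Lipid gene lists held many of these differences between the sexes. The signed log2 fold change, SAT over VAT, was higher in males than in females for 15 of 27 mature adipocyte genes, 18 of 32 lipolysis genes, 12 of 25 lipogenic genes, 13 of 24 genes of triglyceride synthesis and 12 of 27 of fatty acid oxidation, and lower in males for none of them. In females 23 of 27 mature adipocyte genes were lower in SAT, with a median of -2.66, compared with -0.94 in males. Mast cell genes had a higher fold change in males for 6 of 11 and a lower one for 1. The 3 Hox genes numbered 9 to 13 that were tested in males were all lower in female SAT, whereas 2 of them were higher in male SAT. The interaction of Hoxc10 passed (adjusted p = 0.00247), as did that of Hoxc9 (adjusted p = 0.00965). Irx2 and Mmp27 had the same direction in females, by 8.19 and 6.31, and their interactions did not pass (adjusted p = 0.644 and 0.263). Wt1 and Tcf21 were also lower in female SAT (adjusted p = 0.000395 and 0.000878), but with SAT at 0 in males their interactions could not be estimated. Tbx15 differed by 4.83 in females (interaction adjusted p = 0.0796).

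In male rats exposed to PCB 52, 194 of 11430 genes passed between the depots (1.7%), 104 higher (0.91%) and 90 lower in SAT (0.787%). Of the 1342 genes called in sham males, 1319 were tested there, and 96.3% had the same sign, against 72.7% of genes not called in sham males. A total of 132 were called in both, or 9.8% of the sham and 68% of the PCB 52 calls, all in the same direction. The median SE over genes was 0.275 in PCB 52 males, 0.217 in sham males and 0.337 in sham females. Without SAT 19 the count was 294 and without VAT 13 it was 177. The interaction, sham minus PCB 52, passed for 0 of 12034 genes in edgeR, with 442 genes at an unadjusted p under 0.05, and for 9 genes in DESeq2. A count of 0 does not show that the depot differences were equal. Wt1, Tcf21 and Tbx15 differed by -9.74, -10.37 and 8.34 in PCB 52 males (adjusted p = 8.49e-06, 0.000235 and 0.000235), and Mmp27 by 7.86 (adjusted p = 0.000718).

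**Figure D5:**
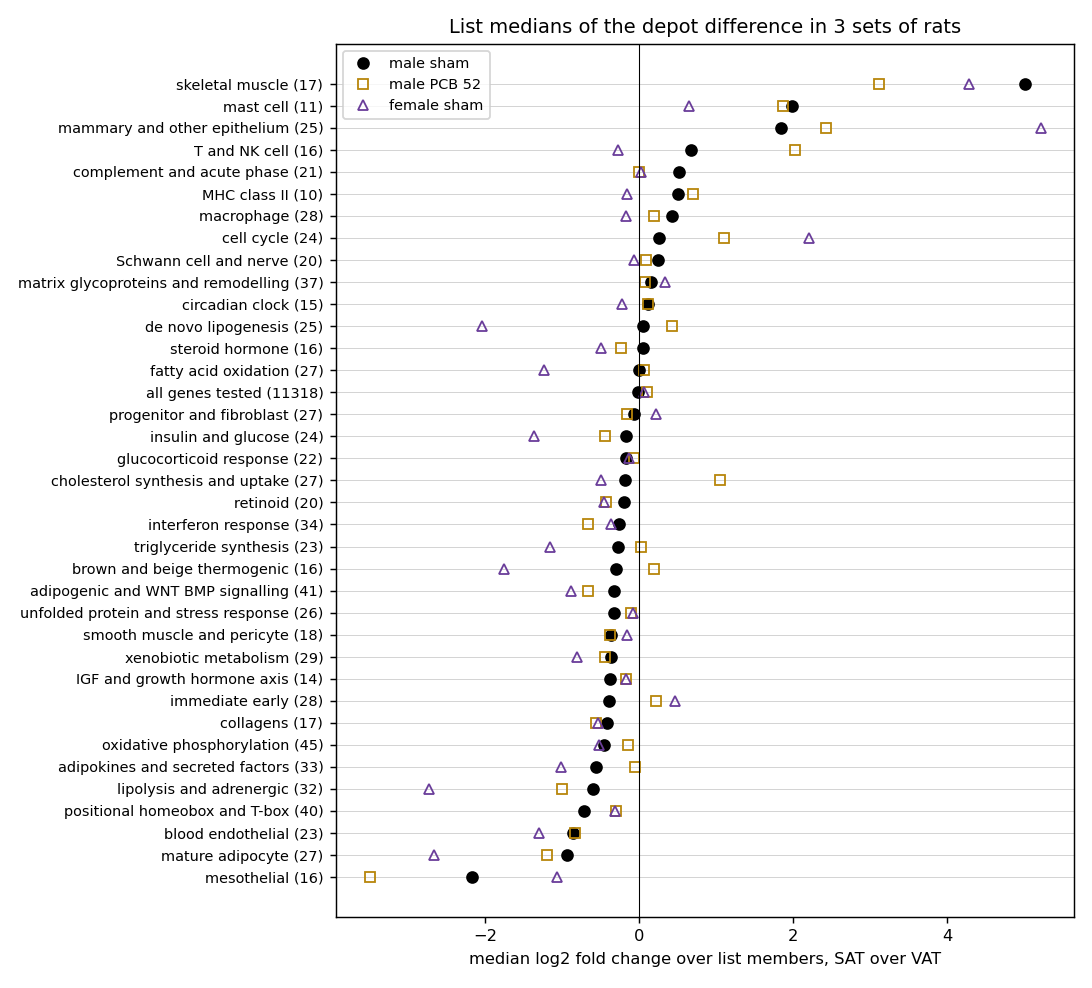
Median log2 fold change, SAT over VAT (x axis), of the listed gene groups (y axis, with the number of genes tested in male sham rats) in male sham rats (black circles), male PCB 52 rats (open squares) and female sham rats (open triangles). Mature adipocyte and lipolysis medians lie near -1 or above in sham males and below -2 in sham females, and the skeletal muscle median, 5.02, is the highest of the male sham medians.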

How the data were processed

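About 100 mg of tissue was used per sample, only RNA with an integrity number of at least 8 was kept, and mRNA was enriched by poly(A) capture or rRNA removal, per the labels' protocols. The submitters' processing notes name FastQC, HISAT2 and the rat build rn6. Tool versions, counter, annotation and strand setting are stated nowhere in the sources used here, so overlapping genes and near-identical copies have uncertain counts. The authors deposited raw counts per gene in tables of 15319 genes by sex and depot. The female VAT table was treated as estimated counts as deposited, because 5 summary lines below its genes, which were left out, are not all whole; no gene value needed rounding. Tables were joined by NCBI gene number. Of these, 15230 matched a symbol in a RefSeq table of GRCr8 and 89 did not; promoter sequences also came from RefSeq on GRCr8 and not from rn6. Brown fat libraries were not used here. Female PCB 52 libraries entered only the alternative fit with the spread from 46 libraries.

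Counts were tested in edgeR 4.0.16 (R 4.3.3) with its default expression filter by depot, TMM factors, robust quasi-likelihood dispersion and quasi-likelihood F tests. P values were adjusted by Benjamini and Hochberg over all genes tested, with a threshold of 0.05. Log2 fold changes are SAT over VAT. CPM of single genes are counts over the TMM-scaled total of tested genes. Sums over lists are counts over the plain total of all genes. Ranges are the lowest and highest of 6 libraries with the median of 6. A floor of 3 counts, for counting error only, was used for genes at 0 in a depot. The code was tested on simulated counts.

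Alternatives were relative log expression scaling, no filter, DESeq2 1.42.0, voom in limma 3.58.1, each library left out, animal 11 left out of both depots, milk and muscle genes left out of the scaling, SAT libraries with over 1% milk genes left out, the spread from 46 libraries, and, chosen after seeing the data, SAT 1, SAT 11 and VAT 11 left out together. Named genes were up to 12 in each direction with the largest called fold change, non-overlapping libraries and 10 CPM or more in the higher depot, up to 4 called members of each of 43 lists by p, fixed marker genes, and up to 5 genes each way per interaction; 24 others are said to be named after their values were seen. Of the 168 genes this rule gives, 56 are not printed. The members and lists were chosen with earlier results of these data known.

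Title numbers run over 24 rats and were taken to name the animal; no label states this outright. Deviations from the group means correlated between same-numbered SAT and VAT libraries with a median r of 0.202 (from -0.204 to 0.394, 5 of 6 pairs over 0.1), against -0.038 for 30 pairs with different numbers. A fit with the animal as a block served as an alternative. Replicates are separate rats by this reading. The lowest chi-square per gene between replicates was 12.1 over 30 pairs, far above sampling noise, so none was merged.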

Additional observations from a re-analysis of the deposited data

Results flagged for a closer look

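Some libraries lay far from the other 5 of their depot by a test for single outliers, which chance alone meets in about 1 of 20 groups; 20 of 258 gene groups and 7 of 86 list groups did so. In VAT 11 the epithelial list summed to 2568 CPM (the others 110.9 to 261.5), the male reproductive tract list to 3724 CPM (26.23 to 96.28), the steroid hormone list to 1462 CPM (1165 to 1264) and the xenobiotic list to 4911 CPM (2957 to 3341). In SAT 11 the B and plasma cell list summed to 1549 CPM (358.5 to 584.2) and the T and NK cell list to 1084 CPM (122.5 to 206.9). In SAT 9 the mast cell list summed to 315.8 CPM (375.8 to 411), still above all VAT libraries.

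Crisp1, Adam7 and Crisp3 were named after their values were seen, and Prom1 by a fold change that VAT 11 enlarged. The rate of 1 in 20 does not apply to genes chosen so, and a count by library is no test. Of the named genes, 9 of 20 outlying values were in VAT 11. They were Hoxc10 at 2.632 CPM, Csn1s2b at 5.557, Svs4 at 134.7 and Crisp1 at 369.9, each 0 in the other VAT libraries, Prom1 at 2788 (16.09 to 26.63), Adam7 at 880.8 and Crisp3 at 2910 (both 0 to 0.141), Bmp6 at 15.94 (24.49 to 25.64) and Hoxa4 at 9.798 CPM (27.59 to 35.47). Other VAT values were Acly at 300.2 CPM (445.6 to 550.3) and Sox10 at 0.6515 (2.029 to 2.779) in VAT 7, Igf1 at 244.4 (399.1 to 498.3) and Aldh1a3 at 33.14 (71.06 to 106.6) in VAT 1, Slc38a3 at 0.4592 (1.833 to 3.189) in VAT 3 and Actn3 at 0 (0.7653 to 1.488) in VAT 9. In SAT they were Col11a1 at 0.4639 CPM (1.111 to 1.55) and Shox2 at 31.08 (4.444 to 8.371) in SAT 5, Clu at 437.1 (170.3 to 224.8) in SAT 11, Svs4 at 3.139 (0) in SAT 9 and Ucp1 at 1.461 CPM (0) in SAT 3.

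The depot difference differed between male and female sham rats, whose start ages also differ, for 1341 genes by the interaction term. Named ones, male minus female on the log2 scale, were Irf4 at 5.86, Fasn at 5.83, Clcn4 at 3.97, Slit2 at -4.39, Wnt5b at -5.03, Sult1d1 at -7.00 and Acsbg1 at -10.63.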

How the results depend on the processing

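Counts of genes past 0.05 moved with the tool and with single libraries, and the cause was not tested. The 1342 genes (781 higher and 561 lower in SAT) became 2707 (1543 and 1164) with DESeq2 and 499 higher and 515 lower with voom. They became 701 (335 and 366) without animal 11 in the fit with the replicate block, and 401 (319 and 82) without SAT libraries over 1% milk genes, which leaves 2 SAT libraries. Leaving out 1 library gave 738 to 1906 genes, 446 to 1148 higher and 284 to 758 lower. The 715 genes that also differed at least 2-fold became 1407 with DESeq2, 466 without animal 11 in the block fit, 377 without the milk-rich libraries, 1224 with the spread from 46 libraries, 309 at a minimum of 4-fold, and 509 to 1065 without 1 library.

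With the animal as a replicate block, 1151 genes passed (566 higher and 585 lower), 112 of 123 named genes with a test kept direction and side of the threshold, 10 lost their call, 1 gained one and none turned. Leaving out 1 library, 1422 of 1476 values of these genes kept direction and side, 50 lost the call, 4 gained one and none turned. Over the other settings 1102 of 1227 did, 100 lost and 18 gained the call. In 7 cases, all without the milk-rich SAT libraries, the sign turned: Scd 0.082, Rbp4 0.195, Gpam 0.126, Mfge8 -0.268, Pkp3 -0.815, Lbp -0.584 and Lcn2 -0.815. List medians moved in 31 of 946 cases. The sex interaction of 1341 genes became 2076 with DESeq2 and 929 to 1831 without 1 library. The PCB 52 interaction of 0 genes became 9 with DESeq2 and stayed at 0 without each of the 12 sham libraries, VAT 13 or SAT 19; the other PCB 52 libraries were not left out in turn. Genes under about 3 counts, 0.357 to 0.463 CPM, cannot be told from 0.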
